A study of Mus musculus with 30 samples.

Results

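Kruppel-like factors were examined in RNA from mouse hearts in which the circadian REV-ERB repressors are labelled as deleted in cardiomyocytes. The 10 genes are Klf2, Klf3, Klf4, Klf6, Klf7, Klf9, Klf10, Klf12, Klf13 and Klf15, chosen by symbol from the 13575 genes of the deposited expression table. The study labels 3 RNA libraries as control, from mice with floxed Rev-erb alleles, and 3 as CM-RevDKO. The latter is a double knockout of Rev-erba and Rev-erbb by a Cre that the alpha myosin heavy chain promoter drives in cardiomyocytes, so that other heart cells keep both genes by design. All hearts were 2 months old, collected at ZT10 (10 hours after lights on), with the atria trimmed. The labels do not give the sex of the RNA samples, do not state whether the controls carried Cre, and name no animal behind a replicate. The p-values therefore measure only the spread between these libraries, which may be technical. If the controls lacked Cre, its effect and that of the deletion cannot be told apart.

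Kruppel-like factors are transcription factors that bind CACCC and GC-rich boxes through zinc fingers at the C-terminus. Their N-terminal parts differ and sort the family into broad classes: members that work with histone acetyltransferases and often activate, members that recruit the corepressor CtBP, and members that recruit the corepressor Sin3. KLF15 stands outside these classes and is known in heart muscle for driving lipid and amino acid use, for setting the daily rhythm of a potassium channel subunit, and for restraining hypertrophy. KLF9 and KLF15 are induced by glucocorticoids, KLF10 by TGF-beta, and KLF2 and KLF4 by blood flow in endothelium.

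Between the groups no Kruppel-like factor passed the test. Klf12 and Klf15 were lower in the libraries labelled CM-RevDKO, without overlap between groups, to 0.633 and 0.768 of the control mean, but neither passed adjustment over all genes (adjusted p = 0.132 and 0.162, limma). The other 8 members overlapped between groups. By comparison, 332 of the 13256 genes tested were called (2.5%; 1.26% higher and 1.24% lower), and the groups did not overlap for 23.1% of all genes tested, so 2 of 10 members without overlap is near the background. Unadjusted p-values under 0.05 were found for 2 of 10 members and for 16.6% of all genes. The median log2 fold change was -0.02 over the members and 0.02 over all genes tested. Each fold change here is a difference in log2(FPKM + 1), where FPKM is a fragment count scaled by transcript length and library size, and each adjusted p comes from limma with Benjamini-Hochberg adjustment over all genes tested.

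The labels and libraries carry limits that touch every direction given. Nr1d1, which encodes REV-ERB alpha, measured 23.9, 22.6 and 15.0 FPKM under the control label, and 55.6, 47.4 and 47.9 FPKM under the CM-RevDKO label, against the direction of the label (log2 fold change 1.28, adjusted p = 0.0124, limma). Nr1d2, which encodes REV-ERB beta, measured 40.3, 30.6 and 36.3 FPKM against 28.8, 26.6 and 26.7 FPKM (adjusted p = 0.175, limma). Gene-level values check no deletion where exons outside the deleted part are counted, so the labels were not checked by these genes. The library sums lay between 678722 and 712158 FPKM, with 36.9% to 41.0% in mitochondrially encoded genes, and the sequencing depth is unknown. The number of genes called fell to 114, 154 and 133 without control replicate 1, 2 or 3, and to 216 and 123 without CM-RevDKO replicate 1 or 2. No member passed in any of these fits. Over all 15 alternative fits the share of genes called ran from 0.212% to 4.3%, again with no member. Groups are named below by their labels. Of the 332 genes 167 were higher and 165 lower. Rescaled without the mitochondrially encoded genes, 118 were higher and 212 lower. In whole-heart RNA, fewer cells of a type and less RNA per cell cannot be told apart. With ZT10 alone, a changed level and a changed timing of a rhythm cannot be told apart either.

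All 10 members were above 0 in every library and passed the filter on low values, a mean of at least 0.5 FPKM. Their levels per length spanned a wide range. Klf9 was highest at 33.0 FPKM on average over the 6 libraries, followed by Klf2 (26.2), Klf15 (19.3), Klf6 (13.7), Klf13 (9.19), Klf3 (8.88), Klf4 (8.57), Klf7 (5.77), Klf10 (3.97) and Klf12 (2.13). Klf9 lay at the 88.3 percentile of mean level among all genes tested and Klf12 at the 22.4 percentile. In this order the ranges over libraries separated at 2 places, between Klf6 and Klf13 and between Klf10 and Klf12. All other neighbours overlapped, and Klf3 was above Klf4 in 3 of 6 libraries.

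**Figure D1:**
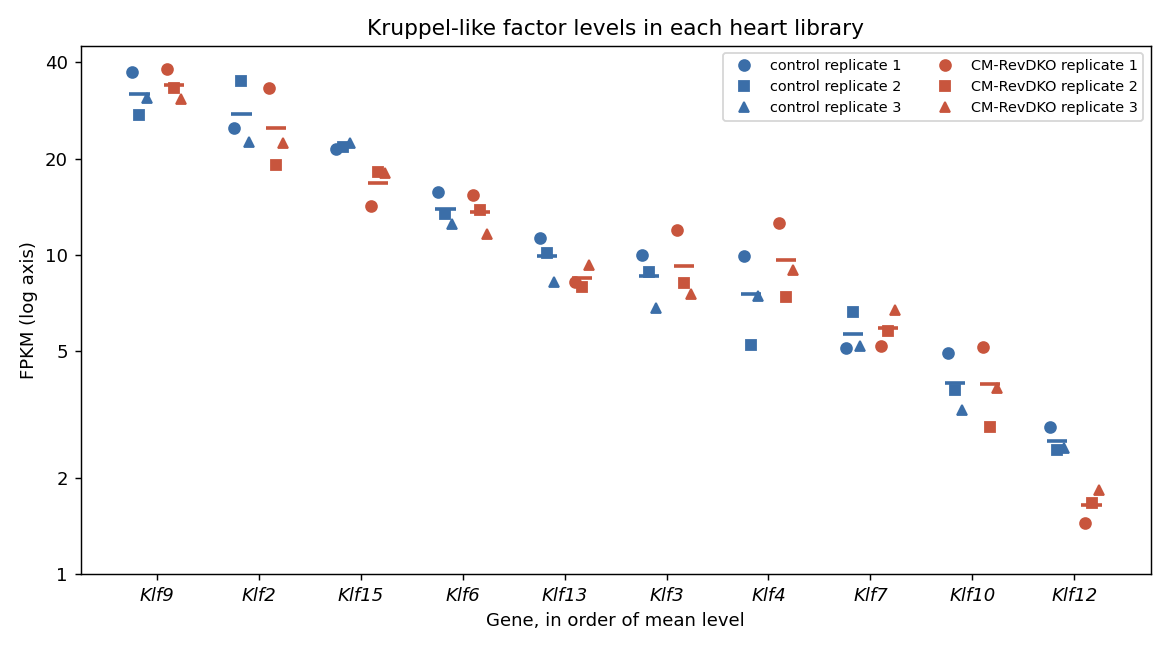
FPKM (log axis) of the 10 Kruppel-like factors in each of 3 control and 3 CM-RevDKO libraries, ordered by mean level; points are libraries, marked by replicate number, and bars are group means. The groups separate for Klf15 and Klf12 and overlap for the other 8 genes.

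Klf12 and Klf15 were the members with the smallest p. The 250 bases before an annotated RefSeq start of each (build GRCm38.p6, which is mm10) are shown for that reason. Klf12 is shown at chr14:100149797-100150046 on the minus strand, inside the span of the gene, which extends further upstream. Klf15 is shown at chr6:90462326-90462575 on the plus strand, also within the annotated span. Capitals mark CACCC or its reverse complement GGGTG, the box that Kruppel-like factors bind, and CACGTG, the E-box that CLOCK and BMAL1 bind.
Klf12: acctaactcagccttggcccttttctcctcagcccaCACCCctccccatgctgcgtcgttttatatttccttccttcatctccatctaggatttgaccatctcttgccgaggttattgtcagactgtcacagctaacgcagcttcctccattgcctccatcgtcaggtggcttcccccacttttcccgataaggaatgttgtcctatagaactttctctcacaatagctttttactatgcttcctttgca
Klf15: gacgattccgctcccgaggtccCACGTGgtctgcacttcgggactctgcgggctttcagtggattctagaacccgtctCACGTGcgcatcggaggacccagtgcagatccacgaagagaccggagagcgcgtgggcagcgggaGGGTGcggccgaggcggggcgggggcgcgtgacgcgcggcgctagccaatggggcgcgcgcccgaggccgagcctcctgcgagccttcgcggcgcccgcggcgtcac
The Klf15 window held 2 E-boxes and the Klf12 window none, and each held 1 CACCC box.

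Klf15 (ENSMUSG00000030087, chromosome 6, 90461043 to 90491803) measured 21.5, 21.7 and 22.4 FPKM under the control label, and 14.2, 18.1 and 18.1 FPKM under the CM-RevDKO label. Every CM-RevDKO library lay below every control, and replicate 1 lay lowest. The log2 fold change was -0.37 (SE 0.11, 95% interval -0.64 to -0.10, adjusted p = 0.162, limma). Without CM-RevDKO replicate 1 it was -0.26 (adjusted p = 0.289, limma).

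Klf12 (ENSMUSG00000072294, chromosome 14, 99866181 to 100285891), a repressor that binds CtBP, measured 2.89, 2.45 and 2.48 FPKM under the control label, and 1.45, 1.67 and 1.83 FPKM under the CM-RevDKO label. The groups again did not overlap, and CM-RevDKO replicate 1 was again lowest. The log2 fold change was -0.44 (SE 0.13, 95% interval -0.74 to -0.15, adjusted p = 0.132, limma). At this low level the value depends on the constant added before the logarithm: it was -0.63 with 0.1 and -0.19 with 5 in place of 1, with adjusted p of 0.125 and 0.138 (limma). Across the 6 libraries Klf12 and Klf15 had a Pearson correlation of 0.91, the highest of the 45 pairs of members. The 6 points share libraries and the group difference.

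Many genes followed these profiles. Among those averaging 5 FPKM or more, Klf12 was most like Golga4 (Pearson r 0.999 over 6 libraries), Mef2a (0.999) and Usp54 (0.995), and 280 of 7255 genes reached 0.9. Golga4 encodes a Golgi tether and Mef2a a muscle transcription factor. Klf15 was most like Ralgapa2 (0.993), Plekhm2 (0.989) and Map3k7 (0.988), and 179 of 7254 genes reached 0.9. Map3k7 encodes the kinase TAK1. The named genes were picked as the highest of all these correlations. The 6 libraries share the group difference, and joint regulation was not tested.

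The other CtBP-binding member, Klf3 (chromosome 5, 64803521 to 64832901), measured 10.0, 8.86 and 6.81 FPKM under the control label, and 11.9, 8.16 and 7.55 FPKM under the CM-RevDKO label. The groups overlapped, with replicate 1 highest in each (log2 fold change 0.08, 95% interval -0.36 to 0.53, adjusted p = 0.875, limma). The ratio of Klf12 to Klf3 within a library, which no scaling of the library changes, was 0.289, 0.277 and 0.364 under the control label, and 0.122, 0.205 and 0.243 under the CM-RevDKO label. These ranges did not overlap (exact two-sided permutation test, p = 0.1, the smallest that 3 against 3 libraries allow). As Klf12 itself separated the groups, this ratio is no further test. The ratios of Klf15 to Klf6 and of Klf2 to Klf4 overlapped between groups (exact two-sided permutation test, p = 0.2 and 0.3).

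Among the Sin3-binding members, Klf9 (chromosome 19, 23141226 to 23168129), the glucocorticoid- and thyroid hormone-induced factor, measured 37.4, 27.4 and 31.0 FPKM under the control label, and 38.2, 33.3 and 30.6 FPKM under the CM-RevDKO label. The groups overlapped (log2 fold change 0.10, 95% interval -0.23 to 0.42, adjusted p = 0.786, limma). Klf13 (chromosome 7, 63886351 to 63938915), which has a role in heart development, measured 11.3, 10.1 and 8.21 FPKM against 8.21, 7.93 and 9.31 FPKM. Its groups overlapped through control replicate 3 (log2 fold change -0.19, 95% interval -0.50 to 0.11, adjusted p = 0.514, limma). Klf10 (chromosome 15, 38291464 to 38300711), the TGF-beta-inducible early gene, measured 4.91, 3.77 and 3.26 FPKM against 5.13, 2.89 and 3.83 FPKM. Its difference was -0.02 on the log2 scale (95% interval -0.48 to 0.44, adjusted p = 0.977, limma), and replicate 1 was highest in both groups. The ratio of Klf15 to Klf9, both glucocorticoid-induced, was 0.574, 0.792 and 0.722 under the control label, and 0.371, 0.543 and 0.590 under the CM-RevDKO label, which overlapped through control replicate 1 (exact two-sided permutation test, p = 0.2).

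The members that work with acetyltransferases overlapped between groups as well. Klf2 (chromosome 8, 72319062 to 72321654), the flow-induced factor of endothelium, measured 24.9, 35.1 and 22.5 FPKM under the control label, and 33.2, 19.0 and 22.3 FPKM under the CM-RevDKO label. In each group a single library was high, control replicate 2 and CM-RevDKO replicate 1 (log2 fold change -0.15, 95% interval -0.69 to 0.39, adjusted p = 0.800, limma). Klf4 (chromosome 4, 55527137 to 55532475), active in endothelium and smooth muscle and known as a pluripotency factor, measured 9.89, 5.20 and 7.44 FPKM against 12.6, 7.36 and 8.98 FPKM. It had the largest positive difference among the members and the widest interval (log2 fold change 0.33, 95% interval -0.24 to 0.90, adjusted p = 0.548, limma). Without control replicate 2 it was 0.12, and without control replicate 1 it was 0.53.

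Klf6 (chromosome 13, 5861489 to 5870393), an injury-response factor, measured 15.7, 13.4 and 12.5 FPKM under the control label, and 15.3, 13.8 and 11.6 FPKM under the CM-RevDKO label (log2 fold change -0.03, 95% interval -0.34 to 0.28, adjusted p = 0.945, limma). Klf7 (chromosome 1, 64029448 to 64122345), known from neuron development, measured 5.12, 6.62 and 5.19 FPKM against 5.17, 5.78 and 6.71 FPKM (log2 fold change 0.05, 95% interval -0.26 to 0.37, adjusted p = 0.890, limma). Both genes were nearly level between groups, but Klf7 changed sign, to -0.0059, when the libraries were rescaled without mitochondrially encoded genes. Over all 10 members no interval of the main fit, with 1 added before the logarithm, reached below -0.74 or above 0.90. With 0.1 added, the log2 fold change of Klf12 was -0.63 (SE 0.18), so these bounds depend on the constant. The interval contained 0 for 8 members and lay below 0 for Klf12 and Klf15, before any adjustment for the number of genes.

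**Figure D2:**
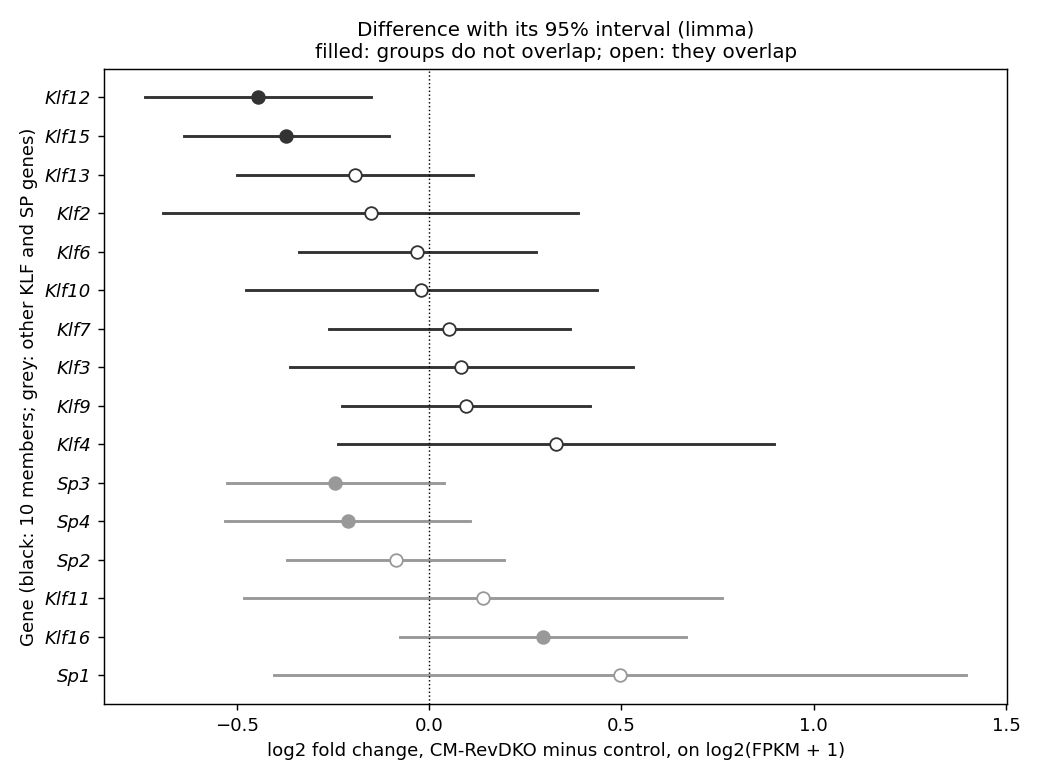
Log2 fold change (CM-RevDKO minus control, on log2(FPKM + 1)) with its 95% limma interval for the 10 members (black) and 6 other KLF and SP genes (grey); filled points mark groups that do not overlap. The intervals of Klf12 (-0.74 to -0.15) and Klf15 (-0.64 to -0.10) lie below 0, and those of the other 8 members contain 0.

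The summed level of the 10 members did not separate the groups. It was 144, 135 and 122 FPKM under the control label, and 145, 118 and 121 FPKM under the CM-RevDKO label (exact two-sided permutation test, p = 0.7). Klf12 made up 2.01%, 1.82% and 2.04% of this sum under the control label, and 0.997%, 1.42% and 1.51% under the CM-RevDKO label, without overlap (exact two-sided permutation test, p = 0.1). Klf12 itself separated the groups, so its share is no further test. The shares of all other members overlapped. The share of Klf15 was 15.0%, 16.1% and 18.4% against 9.75%, 15.3% and 14.9%, which overlapped (exact two-sided permutation test, p = 0.2). By class, the acetyltransferase-linked members held 40.9% ± 3.41 (SD, n = 3) of the sum in control and 41.9% ± 3.38 (SD, n = 3) in CM-RevDKO, and the Sin3-binding members 34.3% ± 3.37 (SD, n = 3) and 36.4% ± 0.961 (SD, n = 3). The CtBP-binding class held 8.34% ± 0.672 (SD, n = 3) and 8.42% ± 0.720 (SD, n = 3).

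**Figure D3:**
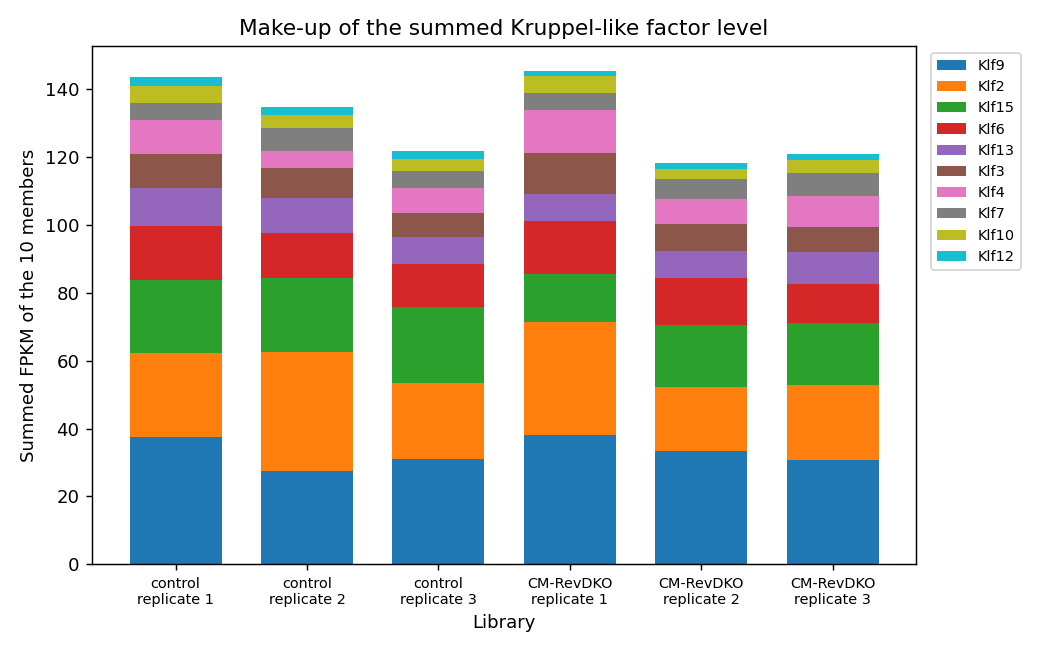
Summed FPKM of the 10 Kruppel-like factors in each library (bars from 0), divided by gene. The sums run from 118 to 145 FPKM, Klf9 and Klf2 are the largest parts, and the Klf15 part is smallest in CM-RevDKO replicate 1.

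The members varied unequally among themselves. The SD within groups, pooled on the log2 scale, was 0.38 for Klf4 and 0.36 for Klf2, above 93.0% and 93.6% of genes at a similar level (within 1.25-fold). It was 0.10 for Klf12, above 11.1% of such genes, and 0.14 for Klf15, above 45.2%. In CM-RevDKO replicate 1, 6 of 10 members were the highest of their group (Klf2, Klf3, Klf4, Klf6, Klf9 and Klf10), as were 45.4% of all genes tested. In control replicate 1, 7 of 10 members were highest in their group (Klf3, Klf4, Klf6, Klf9, Klf10, Klf12 and Klf13), against 40.2% of all genes. Klf4 and Klf9 had a Pearson correlation of 0.88 over the 6 libraries, Klf3 and Klf6 of 0.85 and Klf3 and Klf10 of 0.82. With Klf12 and Klf15, these were the pairs at 0.8 or above. The lowest was Klf7 with Klf9, at -0.77. The median of the 45 correlations was 0.07.

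**Figure D4:**
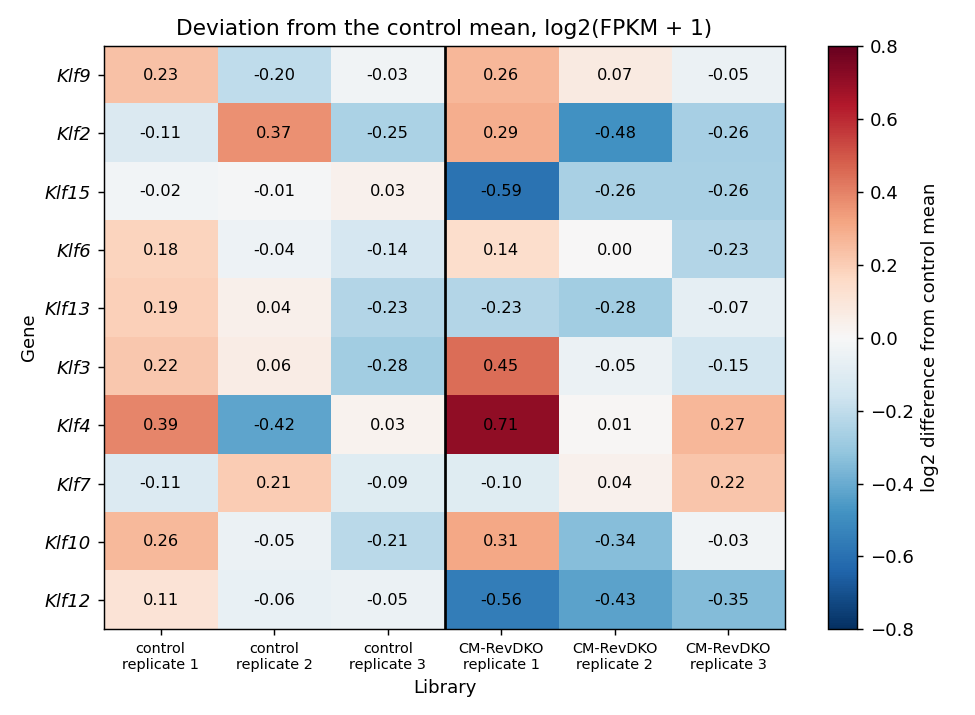
Difference of each Kruppel-like factor from its control mean on log2(FPKM + 1), by gene (rows) and library (columns); red is above and blue below. CM-RevDKO replicate 1 holds the highest value (Klf4, 0.71) and the lowest (Klf15, -0.59), and the Klf15, Klf12 and Klf13 rows are blue in all 3 CM-RevDKO libraries.

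Markers of several other cell types were highest in CM-RevDKO replicate 1. The summed level of 10 macrophage markers was 398 FPKM in it and 236 to 279 FPKM in the other libraries. That of 6 measured adipocyte markers was 1103 FPKM against 593 to 822 FPKM, most of it Fabp4, which heart endothelium also expresses. All 6 were higher on average under the CM-RevDKO label (median log2 fold change 1.07), 2 of them, Adipoq and Retn, without overlap. Adipoq measured 1.06, 1.05 and 1.05 FPKM under the control label, and 6.96, 4.88 and 1.35 FPKM under the CM-RevDKO label (adjusted p = 0.185, limma). Adipoq and Retn were named after their values were seen. The 16 endothelial markers summed to 460 FPKM there, to 430, 386 and 364 FPKM under the control label, and to 394 and 410 FPKM in CM-RevDKO replicates 2 and 3. The 10 fibroblast markers were high in replicate 1 of both groups, at 639 FPKM in control and 631 FPKM in CM-RevDKO, against 456 to 512 FPKM in the other libraries. The part of these cells in the values of the members was not tested. The cardiomyocyte markers, which define the labelled tissue, summed to 30034 to 33890 FPKM in every library. Single markers moved within this sum: of 10, 3 were lower and 3 higher under the CM-RevDKO label without overlap, against 23.1% of all genes without overlap. Ttn measured 83.0, 79.2 and 77.3 FPKM under the control label, and 36.6, 43.2 and 85.6 FPKM under the CM-RevDKO label (adjusted p = 0.322, limma). It was named after its values were seen.

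No marker of the endothelial, fibroblast, macrophage, lymphocyte, erythroid or adipocyte lists passed the test between groups (0 of 16, 10, 10, 3, 5 and 6 by limma), and 0, 0, 0, 0, 2 and 3 of them had an unadjusted p under 0.05. Abcc9, a potassium channel subunit of pericytes and cardiomyocytes, fell from 50.2 to 31.1 FPKM (adjusted p = 0.0113, limma), as 1 of 10 smooth muscle and pericyte markers. Mybpc3, a sarcomere protein, rose from 532 to 831 FPKM (adjusted p = 0.0469, limma), as 1 of 10 cardiomyocyte markers. Unadjusted p-values under 0.05 were found for 3 and 5 markers of these lists. Abcc9 and Mybpc3 were named after their values were seen, and their calls were not followed with libraries left out. The adjusted p of Mybpc3 lies close to the threshold of 0.05. The 5 erythroid markers summed to 5010 to 9005 FPKM under the control label and to 8703 to 11003 FPKM under the CM-RevDKO label.

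The summed level of the atrial markers was higher in each library labelled CM-RevDKO than in any control library. The 7 in the table summed to 289, 199 and 257 FPKM under the control label, and 1489, 764 and 840 FPKM under the CM-RevDKO label. Without Nppa, which made up much of these sums, they were 125, 65.2 and 115 FPKM against 676, 175 and 209.7 FPKM, still without overlap and highest in CM-RevDKO replicate 1. Of 5 tested, Nppa alone passed by limma, 4 had an unadjusted p under 0.05, and the same number were higher without overlap. The other 3 of these were the atrial myosin light chains Myl7 and Myl4 (log2 fold change 1.55 and 1.33, adjusted p = 0.186 and 0.266, limma) and Sln, a calcium pump regulator of atrial muscle (2.10, adjusted p = 0.0892, limma). They were named after their values were seen. Bmp10, another atrial marker, was listed at 0 in some libraries and was not tested.

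Relatives outside the 10 members gave no call either. Of 16 listed relatives 6 were tested and none passed by limma, with none at an unadjusted p under 0.05 (median log2 fold change 0.03). Sp3, a ubiquitous GC-box factor, lay between 7.36 and 8.83 FPKM under the control label and between 5.65 and 7.16 FPKM under the CM-RevDKO label, without overlap (adjusted p = 0.368, limma). The groups did not overlap for 2 further relatives, so for 3 of 6, against 23.1% of all genes. Sp4 was lower, at 1.27 to 1.476 FPKM against 1.478 to 1.91 FPKM in control, so its ranges nearly touched. Klf16 was higher, at 1.96 to 2.02 FPKM against at most 1.84 FPKM. Neither passed (adjusted p = 0.490 and 0.405, limma). Klf11, a close relative of Klf10, was highest in replicate 1 of both groups, at 3.72 and 3.93 FPKM against 1.80 to 2.79 FPKM in the other libraries. Sp1 measured 1.23 FPKM in control replicate 2 and 4.75 to 6.03 FPKM in the other libraries. Sp4, Klf16, Klf11 and Sp1 were named after their values were seen. Of 11 corepressor, coactivator and ubiquitin ligase genes that act on the family, none passed by limma and none had an unadjusted p under 0.05 (median 0.02). Sin3a had the smallest p among them, at 4.96 and 4.16 FPKM on average (adjusted p = 0.501, limma).

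Genes that share inducers with the family were mostly not called. Of 16 glucocorticoid-induced genes 1 rose and none fell (6.25% called against 2.5% of all genes). The median was 0.05, and 4 had an unadjusted p under 0.05 (limma). The riser was Cdkn1a, the cell cycle inhibitor p21, which many other signals induce too. It measured 4.77, 5.67 and 4.19 FPKM under the control label, and 80.9, 85.4 and 71.8 FPKM under the CM-RevDKO label (log2 fold change 3.78, SE 0.12, adjusted p = 1.72e-05, limma). Among 14 immediate early genes (median 0.09) and 16 TGF-beta early response genes (median 0.05) none passed by limma, and 1 and 0 of them had an unadjusted p under 0.05. Ier3, with the smallest p of the first list, measured 21.3 and 15.5 FPKM on average (adjusted p = 0.202, limma). Tgfbr1, the type I TGF-beta receptor and first by p in the second list, measured 4.11 and 3.40 FPKM (adjusted p = 0.457, limma).

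Of 14 heart genes linked to KLF15 in the literature, 2 rose and 2 fell (28.6% called against 2.5% of all genes; median -0.25, with 8 negative). The list was chosen with earlier results of these data known, so this share is no independent test. It mixes genes that KLF15 is known to drive with genes it restrains, so the median gives no direction for KLF15. Among genes averaging 5 FPKM or more, fitted alone, 4.3% were called. Kcnip2, the channel subunit KChIP2 through which KLF15 is known to shape the daily rhythm of repolarization, measured 52.0, 50.5 and 50.2 FPKM under the control label, and 24.9, 31.5 and 32.1 FPKM under the CM-RevDKO label. Its groups lay far apart, and it fell (log2 fold change -0.77, SE 0.11, adjusted p = 0.0169, limma). The call ended when any control library or CM-RevDKO replicate 2 was left out, at adjusted p up to 0.0896 (limma). Cd36, the fatty acid translocase, fell from 379 to 269 FPKM (adjusted p = 0.0471, limma). Slc2a4, the insulin-responsive glucose transporter and a known KLF15 target, measured 115 and 85.3 FPKM on average (adjusted p = 0.116, limma). Cd36 and Slc2a4 were named after their values were seen. The adjusted p of Cd36 lies close to the threshold of 0.05, and its call was not followed with libraries left out. The natriuretic peptide genes Nppa and Nppb, which KLF15 is known to restrain, rose, from 147 to 677 FPKM (adjusted p = 7.37e-04, limma) and from 56.7 to 385 FPKM (adjusted p = 0.00115, limma). The sum of the atrial markers other than Nppa was also higher under the CM-RevDKO label, as given above, and their part in the rises was not tested.

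Amino acid breakdown, which KLF15 is known to drive, went both ways. Of 20 genes 2 fell and 1 rose (15% called against 2.5% of all genes), with a median of -0.11 and 15 negative. The groups did not overlap for 11 of 20, against 23.1% of all genes. An unadjusted p under 0.05 was found for 7 of 20, against 16.6% (limma). This list too was chosen with earlier results of these data known. Dbt, a core subunit of the branched-chain ketoacid dehydrogenase, measured 21.9, 22.3 and 22.3 FPKM under the control label, and 12.2, 13.7 and 16.1 FPKM under the CM-RevDKO label (log2 fold change -0.63, SE 0.11, adjusted p = 0.0364, limma). Bckdhb, another subunit, fell as well, to 23.3 ± 0.969 FPKM (SD, n = 3) from 33.0 ± 1.17 FPKM (SD, n = 3; adjusted p = 0.0333, limma). The call of Dbt ended in 5 of 6 fits with a library left out, all but that without CM-RevDKO replicate 3, and that of Bckdhb in all 6, at adjusted p up to 0.123 and 0.125 (limma). Both calls also ended without the intensity trend, at adjusted p of 0.0575 and 0.0606 (limma), with the same log2 fold changes. Gpt, an alanine aminotransferase and a known KLF15 target, rose, with 15.6 ± 0.626 FPKM (SD, n = 3) under the control label and 29.6 ± 1.22 FPKM (SD, n = 3) under the other (log2 fold change 0.88, adjusted p = 0.00346, limma), and held with each library left out.

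**Figure D5:**
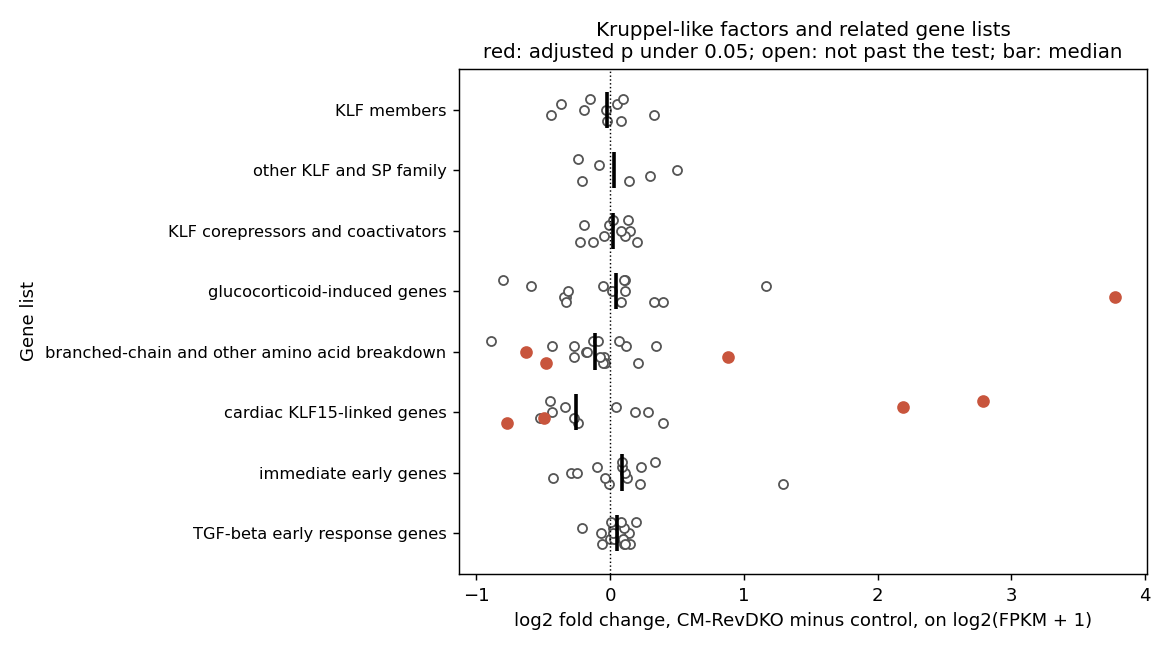
Log2 fold change (CM-RevDKO minus control, on log2(FPKM + 1)) of each tested gene in 8 lists (rows); red points passed the test, open points did not, and the bar is the median. No Kruppel-like factor is red, against 4 of 14 KLF15-linked genes and 3 of 20 amino acid breakdown genes. Of all genes tested, 2.5% passed. The lists were chosen with earlier results of these data known.

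Among 19 core clock genes 6 rose and 1 fell (36.8% called against 2.5% of all genes). This list was also chosen with earlier results of these data known, so the share is no independent test. Arntl, which encodes BMAL1, an E-box activator, measured 0.295, 0.145 and 0.0831 FPKM under the control label, and 12.5, 13.0 and 12.9 FPKM under the CM-RevDKO label (adjusted p = 1.72e-05, limma). Nfil3, which encodes E4BP4, a D-box repressor, rose from 2.89 to 15.7 FPKM (adjusted p = 0.00111, limma).

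Promoters of 9 of the 10 members were found in the RefSeq table (GRCm38.p6); that of Klf10 was not used here. In the 250 bases before an annotated start, their median GC content was 71.2%, against 52.4% over all 32851 promoter windows. Klf12 had the lowest, 48.0%, and Klf3 the highest, 78.4%. The Klf7, Klf12 and Klf15 windows lay inside the annotated span of the gene, not before its outermost start. Motifs were searched on both strands, and none of the motifs contains another. The KLF box CACCC was in 7 of 9 windows and in 52.0% of all windows, and the GC box GGGCGG in 7 of 9 and in 32.7%. The E-box CACGTG was in 3 of 9 (Klf4, Klf6 and Klf15) and in 6.02% of all windows. The REV-ERB and ROR core AGGTCA was in none of the 9 and in 14.0% of all windows, the D-box TTANNTAA in none and in 5.43%, and the glucocorticoid receptor pattern ACANNNTGT in none and in 5.84%. The background windows were not matched for GC content, which bears on how often such letters occur. With 9 windows, none cannot be told apart from shares of this size. These are matches of letters in a short window, not measured binding sites.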

How the data were processed

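The 6 heart RNA libraries were used; the other 24 of the 30 samples were not analysed here. The authors deposited 1 table of 13575 genes, read as FPKM; the submitters' processing notes list HISAT2, StringTie and mm10 without versions. No strand setting is stated. The header names no unit, so TPM cannot be told apart from FPKM. Depth is unknown. Columns were matched to samples by group and number.

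The 13256 genes averaging 0.5 FPKM or more were fitted on log2(FPKM + 1) with limma 3.58.1 in R 4.3.3 (intensity trend, group as the only term), two-sided, threshold 0.05. The procedure was tested on simulated data with log2 changes larger than those of any member in the main fit. Recovery of changes as small as the members' was not tested. The members, 8 gene lists and 9 marker lists were chosen with earlier results of these data known; the lists' results stand in the report. By rule the text names all members, up to 3 called genes per list (or that with the smallest p), Nr1d1, Nr1d2 and the 3 genes most like Klf12 and Klf15. Other genes were named after their values were seen. The 15 alternatives cover the constant, filter, scaling, trend, replicate block and left-out libraries. Positions and promoters are from RefSeq.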

Additional observations from a re-analysis of the deposited data

How the results depend on the processing

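No Kruppel-like factor passed the test in any of the 15 alternatives, and Klf12, Klf13, Klf15 and Klf4 kept their sign in each alternative in which they were tested. With a mean of at least 5 FPKM, Klf10 and Klf12 were not tested. The smallest adjusted p of a member was 0.111 (Klf12, rescaled without mitochondrially encoded genes, limma). With 1 library left out, the number of genes called was 114 to 323, against 332. Without CM-RevDKO replicates 1 and 2 it was 28, where the lone library is assumed to vary like the controls; fewer libraries enter these fits. Members near 0 changed sign with a library left out: Klf2 ranged from -0.37 to 0.032, Klf3 from -0.10 to 0.20, Klf6 from -0.11 to 0.071, Klf7 from -0.031 to 0.16, Klf9 from -0.0059 to 0.21 and Klf10 from -0.19 to 0.14. Without CM-RevDKO replicates 1 and 2, Klf3 was -0.15 and Klf9 -0.048. Klf7 was -0.0059 rescaled without mitochondrially encoded genes. The cause was not tested.

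With a replicate block the number of genes called was 115 and no member passed (smallest adjusted p 0.209, Klf15, limma). The calls of Kcnip2, Dbt and Bckdhb ended with it (adjusted p = 0.0704, 0.0889 and 0.112, limma), at the same log2 fold changes. The deviations of same-numbered libraries correlated at -0.04, -0.06 and 0.09 across genes, and 2 of 6 libraries correlated best with their own number. Across all genes no pairing by number was seen, but such correlations cannot exclude it, and the labels state none. With the block the SE fell from 0.24 to 0.10 for Klf4, from 0.19 to 0.11 for Klf3 and from 0.20 to 0.14 for Klf10. It also fell for Klf6, Klf7, Klf9 and Klf15. It rose for Klf2 (0.23 to 0.24), Klf12 and Klf13 (both 0.13 to 0.14).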
